A study of Mus musculus with 11 samples.

Results

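Zeb1 and Zeb2 encode the paralogous zinc finger E-box binding homeobox factors ZEB1 and ZEB2, and the open chromatin at both loci was followed through 6 states of mouse CD8 T cells. A region belonged to a locus when the nearest protein-coding gene span in the RefSeq table was that gene, with a limit of 100 kb. Of 111041 regions in all libraries, 52 met this rule, 22 at Zeb1 and 30 at Zeb2.

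The assay was ATAC-seq, in which a transposase cuts and tags accessible DNA, on CD8 T cells from mouse spleen that carry a YFP reporter of Tcf7, the gene of the factor TCF-1, per the labels. Naive cells (CD44-, YFP+) and antigen-experienced cells (CD44+, YFP+) were sorted, with a further surface marker that both share, from spleen and have 1 library each. Day 3 effector cells, activated ex vivo for 3 days, also have 1 library. The 8 other libraries come from cells split by YFP on day 3, returned to culture and split by YFP once more on day 9. In high_to_high libraries (n = 2) YFP was high each time, in low_to_low libraries (n = 3) it was low each time, and low_to_high libraries (n = 3) went from low to high. Strain, age and the agent used for activation are not given in the sources used here, nor whether replicates came from separate animals, so p-values may measure only technical spread. In such bulk samples, more cells with an open site and more opening per cell cannot be told apart.

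Library totals ran from 20836580 to 59973499 tags. The naive library was counted in peak windows of 132 bp and high_to_high replicate 2 in windows of 136 bp, against 172 bp in the other 9. The share of tags inside peaks was 15.0 and 15.8% in the splenic libraries, 9.08% in the effector library and 9.01 to 12.5% at day 9. All 8 marker genes of CD8 T cells had regions in each group. The B cell list lacked regions at Ms4a1 and Cd79a in the splenic and day 9 groups and at Cd79a and Cd79b, among others, in effector cells.

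ZEB proteins bind E-boxes of the sequence CACCTG through a pair of zinc finger clusters and recruit corepressors such as CtBP. In CD8 T cells, ZEB2 acts with the T-box factor T-bet in terminal effector differentiation, whereas ZEB1 has been linked to memory cells, and TGF-beta signalling is known to push the genes in opposite directions. MicroRNAs of the miR-200 family silence both genes in many tissues.

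The Zeb2 gene lies on the minus strand of chromosome 2 (44983512 to 45117442, mm10), and 4 start sites are listed for it in the RefSeq promoter table (GRCm38.p6). Promoters of 2 of them are shown because only these starts had peaks within 1 kb. In both, capitals mark matches to the motifs searched on both strands: E-box CACCTG, TCF-1/LEF CTTTGA, T-box AGGTGTGA, AP-1 TGANTCA, RUNX TGTGGT, NFAT GGAAAA, SMAD CAGAC and ETS GGAAGT. The sequences are the 250 bases before each start, 5′ to 3′ on the gene's strand, at chr2:45117443-45117692 for the outermost start and chr2:45110278-45110527 for the inner start.
Zeb2 outermost start: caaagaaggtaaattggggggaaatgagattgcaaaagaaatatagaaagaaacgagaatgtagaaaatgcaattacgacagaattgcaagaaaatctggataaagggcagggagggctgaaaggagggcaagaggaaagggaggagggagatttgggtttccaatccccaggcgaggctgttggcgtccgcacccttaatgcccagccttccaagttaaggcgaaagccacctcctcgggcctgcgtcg
Zeb2 inner start: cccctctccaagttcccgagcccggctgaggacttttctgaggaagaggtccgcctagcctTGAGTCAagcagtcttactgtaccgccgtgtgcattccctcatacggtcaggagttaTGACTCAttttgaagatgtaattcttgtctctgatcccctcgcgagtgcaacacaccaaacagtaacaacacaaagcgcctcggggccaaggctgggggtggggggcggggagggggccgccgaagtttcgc

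None of the 8 motifs occurs in the 250 bases before the outermost start. Before the inner start there are 2 AP-1 matches, TGAGTCA at 183 to 189 bases and TGACTCA at 126 to 132 bases. At least 1 AP-1 match occurs in 6.75% of the 32851 promoters of this length, and 2 or more in 0.338%. Matches to the other motifs occur in 1.12% (T-box) to 42.2% (SMAD) of promoters. These are matches of letters and show no binding. The table holds no promoter of Zeb1.

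The miR-200 family is shown because its members are the best known repressors of both genes. The mature sequences are from RefSeq (GRCm38.p6), with the seed (bases 2 to 8) in capitals, and fall into 2 seed groups.
mmu-miR-200b-3p: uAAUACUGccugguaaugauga
mmu-miR-200c-3p: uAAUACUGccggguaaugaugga
mmu-miR-429-3p: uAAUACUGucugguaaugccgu
mmu-miR-200a-3p: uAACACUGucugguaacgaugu
mmu-miR-141-3p: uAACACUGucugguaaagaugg

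No library listed a peak over either hairpin cluster. The nearest region to Mir200b, Mir200a and Mir429 (chromosome 4, 156053905 to 156055750) lay 11919 bp away, next to Ttll10. It was listed in 10 libraries at 11.9 to 16.3 and was missing from the effector list. These values, and those below, are normalized tag counts, the tags in a peak window scaled to a library of 10000000 tags. The nearest region to Mir200c and Mir141 (chromosome 6, 124717914 to 124718390) lay 5160 bp away, next to Ptpn6, at 26.9 to 55.6 in the same 10 libraries. An unlisted region is below the caller's limits and is not known to be closed.

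The Zeb1 locus (chromosome 18, 5591327 to 5775468) was marked by strong regions near the end of the span where transcription starts (the table gives no strand; the mouse gene is known to run toward higher coordinates). Naive and antigen-experienced cells had their highest values there, effector cells had low ones, and day 9 cells lay between. Of the 22 regions, 17 lay inside the gene span, 5 were listed in all 11 libraries and 13 in 1 library only. Over the series, 21.1% of regions were listed in all 11.

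**Figure D1:**
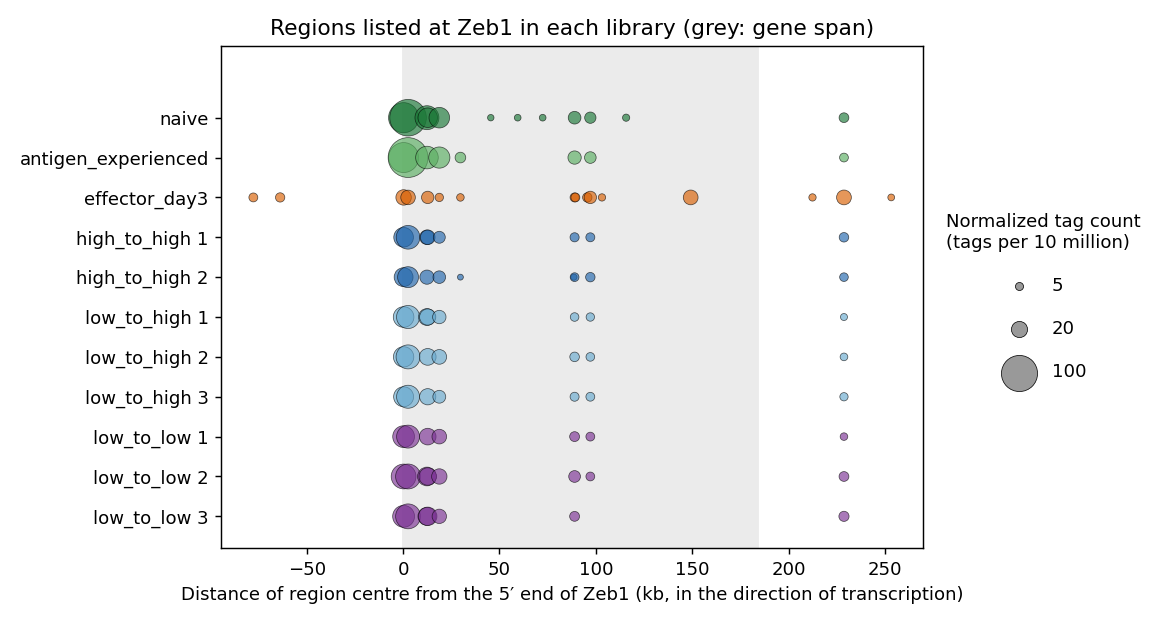
Regions listed at Zeb1 in each of the 11 libraries (rows) against distance from the 5′ end of the gene in kb, with circle area proportional to the normalized tag count and the gene span in grey. The circles within 20 kb of the 5′ end are large in both splenic libraries and small in the effector library, which alone has 8 further regions.

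The region over the first bases of the span (5591506 to 5591755) held 69.6 in naive, 69.0 in antigen-experienced and 18.3 in effector cells. At day 9 it held 29.6 and 27.4 in high_to_high, 32.6, 31.8 and 30.5 in low_to_high, and 36.3, 47.1 and 36.7 in low_to_low libraries. Each day 9 library therefore lay above the effector value and below both splenic values.

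A second region, 2.62 kb into the gene (5593791 to 5594094), was the strongest of the locus. It held 102.6 in naive, 121.6 in antigen-experienced and 16.3 in effector cells. Its day 9 values were 43.0 and 33.6 in high_to_high, 40.8, 44.1 and 40.6 in low_to_high, and 40.4, 47.7 and 47.5 in low_to_low libraries. The order was the same as at the start of the gene, with no overlap between day 9 and any reference library.

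The same order held 18.8 kb into the gene (5609982 to 5610314). There naive cells had 32.5, antigen-experienced cells 34.5 and effector cells 5.36. Values were 11 and 12.2 in high_to_high, 13.8, 16.6 and 12.7 in low_to_high, and 16.5, 18.2 and 15.9 in low_to_low libraries.

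A pair of neighbouring windows lay between these, 12.4 and 12.8 kb into the gene and 70 bp apart. The lower one was listed in 7 libraries, the upper one in 9, and 1 or the other in all 11. Joined into 1 site (5603629 to 5604334), they held 44.0 in naive, 39.2 in antigen-experienced and 11.8 in effector cells. Joined day 9 values were 16.5 and 15.5 in high_to_high, 21.8, 21.5 and 20.2 in low_to_high, and 21.3, 26.9 and 26.2 in low_to_low libraries. This site followed the order of its neighbours.

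Differences between single libraries are given on the log2(normalized tag count + 1) scale relative to the median region listed in both libraries, and have no replicate check. From naive to effector cells that median region fell by 0.71 on the log2 scale, so a difference of 0 is still a lower deposited value. At 0.30, 2.62 and 18.8 kb the effector minus naive differences were -1.16, -1.87 and -1.69. Of the 7 shared Zeb1 regions these 3 alone had a difference of -1 or below, a size reached by 6.1% of the 32333 shared regions. The upper window at 12.8 kb had -0.53, but with its neighbour as 1 joined site the difference was -1.11. The whole locus had a median of -0.53. When only peaks of at least 10 were kept and the centring was redone on them, the median was -0.92 over 3 regions. The naive window is narrower, and its part in the difference was not tested.

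Zeb1 was not uniform. A region 44445 bp beyond the 3′ end of the gene (5819913 to 5820197) held 16.8 in effector cells, 7.33 in naive and 5.97 in antigen-experienced cells. At day 9 it held 6.97 and 5.75 in high_to_high, 3.82, 4.52 and 5.28 in low_to_high, and 4.43, 7.41 and 7.95 in low_to_low libraries. Here the effector library stood above the 10 others. Its difference from naive cells was 1.81, and 14.6% of shared regions reached 1 or more.

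Further into the gene, at 89.0 kb (5680123 to 5680530), naive cells had 12.4, antigen-experienced cells 13.6 and effector cells 6.30. Day 9 values were 6.39 and 5.92 in high_to_high, 5.67, 7.04 and 6.24 in low_to_high, and 7.50, 10.6 and 7.52 in low_to_low libraries. They overlapped the effector value and lay below both splenic values. At 97.2 kb (5688329 to 5688647), values were 9.86 in naive, 10.4 in antigen-experienced and 11.8 in effector cells, and 5.43 to 6.84 in the 7 day 9 libraries that listed it. Only low_to_low replicate 3 lacked that region.

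Effector cells alone listed 8 Zeb1 regions, 50% of the 16 they had at the locus, against 39.4% of all effector regions. With assignment within 10 kb the share was 36.4% (4 of 11), below that of all effector regions. The 8 were 36.4% of the 22 regions, and effector-only regions were 23.4% of all. The strongest held 16.7 and lay 149.2 kb into the gene (5740460 to 5740632), and the others held 3.57 to 6.77. Only 5 of the 8 exceeded 4.32, the value of the weakest listed peak in the library with the highest such limit, low_to_high replicate 3. That is 62.5%, against 76.0% of all effector-only regions. Naive cells alone listed 4 regions at 3.20 to 4, the strongest 115.7 kb into the gene (5706987 to 5707119), and naive-only regions were 4.79% of all. A region 29.8 kb into the gene held 8.73 in antigen-experienced cells, 4.42 in effector cells and 2.67 in high_to_high replicate 2, and the latter alone listed one 88.6 kb into the gene, at 3.00.

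Against antigen-experienced cells, effector cells were higher by 1 or more at 2 of 7 shared Zeb1 regions (1.08 at 97.2 kb and 2.27 beyond the 3′ end) and lower at 2 (-1.91 at 2.62 kb and -1.56 at 18.8 kb). Over all shared regions 12.5% were higher and 5.21% lower by that much.

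**Figure D2:**
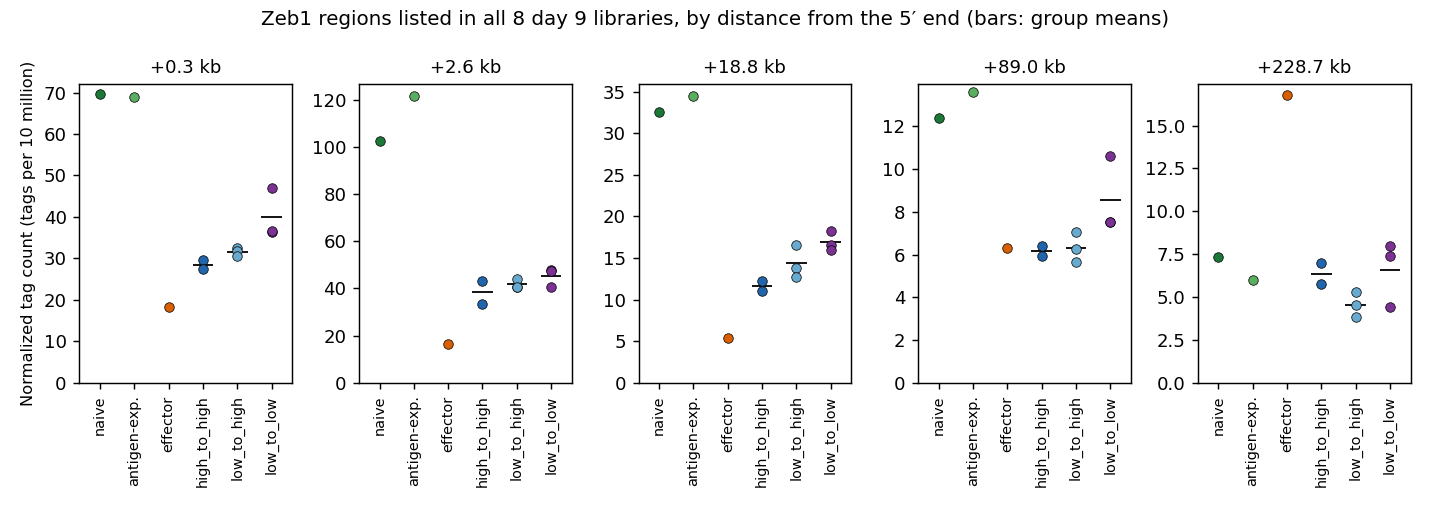
Normalized tag count of the 5 Zeb1 regions listed in all 8 day 9 libraries, in panels by distance from the 5′ end in kb, with 1 point per library and a bar at each day 9 group mean. In the panels at 0.3, 2.6 and 18.8 kb the splenic points are highest and the effector point lowest, and at 228.7 kb the effector point is highest.

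Day 9 cells thus stood between naive and effector cells near the start of Zeb1, and this order also held on the centred scale. Over the 23471 regions listed in all 11 libraries, centred on their median, the day 9 mean at the start of Zeb1 was -0.73 against naive (-0.85 to -0.56 over the 8 libraries) and 0.39 against effector cells (0.27 to 0.56). At 2.62 kb the differences were -0.97 (-1.10 to -0.76) and 0.86 (0.73 to 1.07). At 18.8 kb they were -0.82 (-1 to -0.67) and 0.83 (0.64 to 0.98). Of these means 0 reached 1 in size, which 1.49% of regions did downward and 7.72% upward against naive cells, and 4.98% upward against effector cells. Against antigen-experienced cells the same 3 regions differed by -0.46, -0.96 and -0.65, where 0.852% of regions reached 1 downward and 4.62% upward. At Zeb2 the regions 6228 and 1543 bp beyond the gene differed from naive cells by 0.71 and 0.50 and from effector cells by -0.84 and -0.14. The Zeb1 region beyond the 3′ end was -1.88 against effector cells (-2.28 to -1.43), and 3.14% of regions were lower by 1 or more.

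At Zeb2 effector cells listed 20 of the 30 regions, naive cells 10 and antigen-experienced cells 9. Of all regions these libraries listed 59.5, 51.7 and 45.2%. Naive cells lacked 17 of the 20 effector regions at Zeb2 and 9 of 16 at Zeb1, against 51% of all effector regions. Effector cells lacked 7 of the 10 naive regions at Zeb2 and 5 of 12 at Zeb1, against 43.7% of all naive regions. Day 9 libraries listed 7 to 12, and 41.7 to 55.9% of all regions. High_to_high replicate 2, the only library deeper than the effector library, had 12. The same libraries listed 12, 8 and 16 regions at Zeb1, in the order naive, antigen-experienced and effector, and 7 to 9 at day 9.

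Of the 20 effector regions at Zeb2, 13 were in no other library. This is 65%, against 39.4% of all effector regions and 50% at Zeb1. With assignment within 10 kb it was 58.3% (7 of 12), against 36.4% at Zeb1 (4 of 11). With peaks of a normalized tag count of at least 10 only, the share was 76.9% (10 of 13), against 33.6% over the series and 33.3% at Zeb1 (2 of 6). That filter also drops weaker peaks of other libraries. It thus counts a region at 10.1 that high_to_high replicate 2 listed at 3.00. It also counts one at 13.5 (45110343 to 45110540) that low_to_low replicate 1 listed at 9.71. At Zeb1 it counts the region beyond the 3′ end, listed in all 11 libraries. Without the filter, the 13 effector-only Zeb2 regions held 3.76 to 23.6 with a median of 12.4. The median was 7.05 over all 25997 effector-only regions and 6.11 at Zeb1. Above the 4.32 limit were 11 of the 13 (84.6%), against 76.0% of all effector-only regions.

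**Figure D3:**
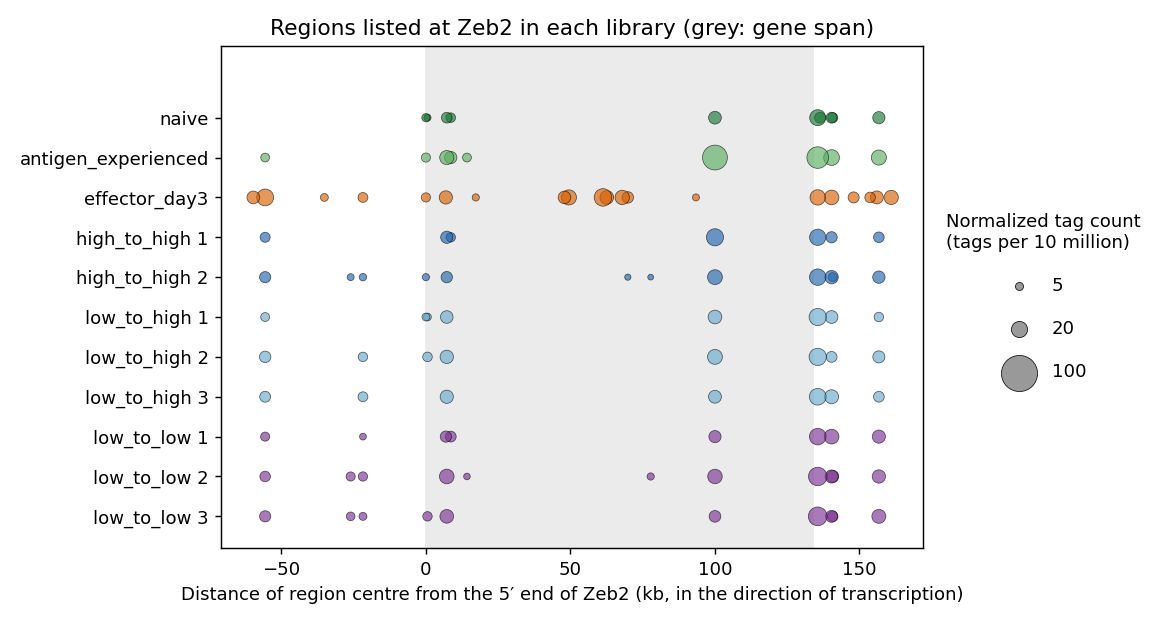
Regions listed at Zeb2 in each of the 11 libraries (rows) against distance from the 5′ end of the gene in kb, with circle area proportional to the normalized tag count and the gene span in grey. The effector row alone is filled between 48.0 and 69.9 kb, apart from 1 small circle in high_to_high replicate 2, and lacks the region at 100.1 kb that the 10 other rows have.

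A run of 6 effector regions lay inside the gene within 22.1 kb (45047410 to 45069520), each at most 12 kb from the next. They held 10.1, 15.9, 14.4, 23.6, 17.6 and 12.1 from low to high coordinates. The strongest effector-only region of either locus, at 23.6, belonged to this run (45056031 to 45056203, 61.3 kb from the outermost start). Among the other 10 libraries, high_to_high replicate 2 listed 1 of the 6, at 3.00, and no library listed another. By the same 12 kb limit Zeb1 had a run of 5 effector regions over 29.7 kb, 0 of them effector-only. Another Zeb1 run had 5 over 14.5 kb, 3 of them effector-only. How often such runs occur over the series was not counted.

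A second Zeb2 run of 6 effector regions, 25.6 kb long, lay beyond the 3′ end of the gene (44956359 to 44981969). Of these, 4 were effector-only, at 15.6, 12.9, 8.55 and 9.40, and the other two were shared by all 11 libraries. Upstream of the gene, a region 55308 bp away (45172750 to 45173081) held 21.7 in effector and 5.97 in antigen-experienced cells, and naive cells lacked it. At day 9 it held 7.75 and 9.67 in high_to_high, 6.04, 10.1 and 9.12 in low_to_high, and 6.39, 8.60 and 9.67 in low_to_low libraries. The effector value was above all 9 others listed. Next to it an effector-only region held 12.4. Against antigen-experienced cells the effector difference at this region was 2.62, the only one of 4 shared Zeb2 regions to reach 1, as 12.5% of all shared regions did.

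Only 3 Zeb2 regions were listed in both naive and effector cells, and all had positive differences, of 1.51, 0.60 and 0.98. Of these, 1 reached a difference of 1, as 14.6% of all shared regions did upward. The first lies 6228 bp beyond the 3′ end (44976851 to 44977284), the second 1543 bp beyond it (44981752 to 44981969), and the third at the outermost start (45117227 to 45117435). On the deposited scale the second had 19.7 in naive and 18.2 in effector cells, so its direction depends on the centring.

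The outermost start of Zeb2 was weak. The third region just named held 5.20 in naive, 6.39 in antigen-experienced and 6.49 in effector cells. At day 9 it was listed in high_to_high replicate 2 (at 4) and low_to_high replicate 1 (at 4.69) alone. It ends just inside the gene and covers none of the 250 bases printed for that start. A window 0.655 kb into the gene (45116618 to 45116956) held 3.86 to 7.04 in 4 libraries, naive, low_to_high replicates 1 and 2 and low_to_low replicate 3.

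Beside the inner start, all 11 libraries listed 1 or the other of a pair of windows 106 bp apart. Neither window covers the start itself, and no library listed both. In the lower window (45110006 to 45110236) naive cells had 8.79 and antigen-experienced cells 15.3. It held 11.4 and 9.92 in high_to_high, 12.2, 13.7 and 13.4 in low_to_high, and 16.5 and 14.4 in low_to_low replicates 2 and 3. Effector cells and low_to_low replicate 1 had the upper window instead (45110343 to 45110540), at 13.5 and 9.71. The upper window covers bases 66 to 250 before the inner start and both AP-1 matches printed above. The lower window covers none of those 250 bases. As 1 joined site, effector cells were 1.27 above naive cells and 0.75 above antigen-experienced cells on the centred scale. These differences compare different windows. Without joining, 14.6% of all regions shared by effector and naive cells were higher by 1 or more in effector cells. The deposited values were 13.5 in effector cells (upper window), 8.79 in naive and 15.3 in antigen-experienced cells (lower window). Against antigen-experienced cells the direction thus depends on the centring.

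A region 100.1 kb into the gene (45017270 to 45017504) was listed in each library but the effector one. Antigen-experienced cells had 47.3 there, naive cells 12.5, and the effector list lacks it. At day 9 it held 22.5 and 16.9 in high_to_high, 14.3, 17.0 and 12.7 in low_to_high, and 11.4, 16.1 and 10.5 in low_to_low libraries. On this deposited scale both high_to_high values exceed those of all low_to_low libraries, and low_to_high values overlap both groups. On the centred log2 scale the day 9 groups did not overlap, a separation not counted over all regions. The centred values were 4.71 and 4.32 in high_to_high, 3.85 to 4.13 in low_to_high and 3.45 to 3.80 in low_to_low libraries.

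The antigen-experienced library stood above the naive one at all 7 Zeb2 regions listed in both, with a median difference of 0.57. The region at 100.1 kb had the widest difference, 1.68, the only one of the 7 to reach 1, as 3.69% of the 44068 shared regions did. At Zeb1 the median difference over 7 regions was -0.09, from -0.42 to 0.08, and 0 of 7 reached 1 in size, where 3.69% of regions did upward and 1.07% downward. Of the naive regions antigen-experienced cells lacked 5 of 12 at Zeb1 and 3 of 10 at Zeb2, against 23.2% of all naive regions, and 1 of 8 and 2 of 9 antigen-experienced regions were not listed in naive cells, against 12.2% over the series. Summed values of the B cell marker list were 177.6 in the antigen-experienced and 66.3 in the naive library, with Ms4a1 and Cd79a without a region in both. Those of the myeloid list were 206.4 and 211.4, and of the natural killer list 568.4 and 530.3. The CD4 and regulatory T cell list summed to 314.5 and 273.9, with a median difference of -0.29 over 12 shared regions. A region 26981 bp from Cd40lg, a gene of that list, held 35.2 in antigen-experienced cells and was not listed in naive cells. The part of other cells in the Zeb2 difference was not tested.

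**Figure D4:**
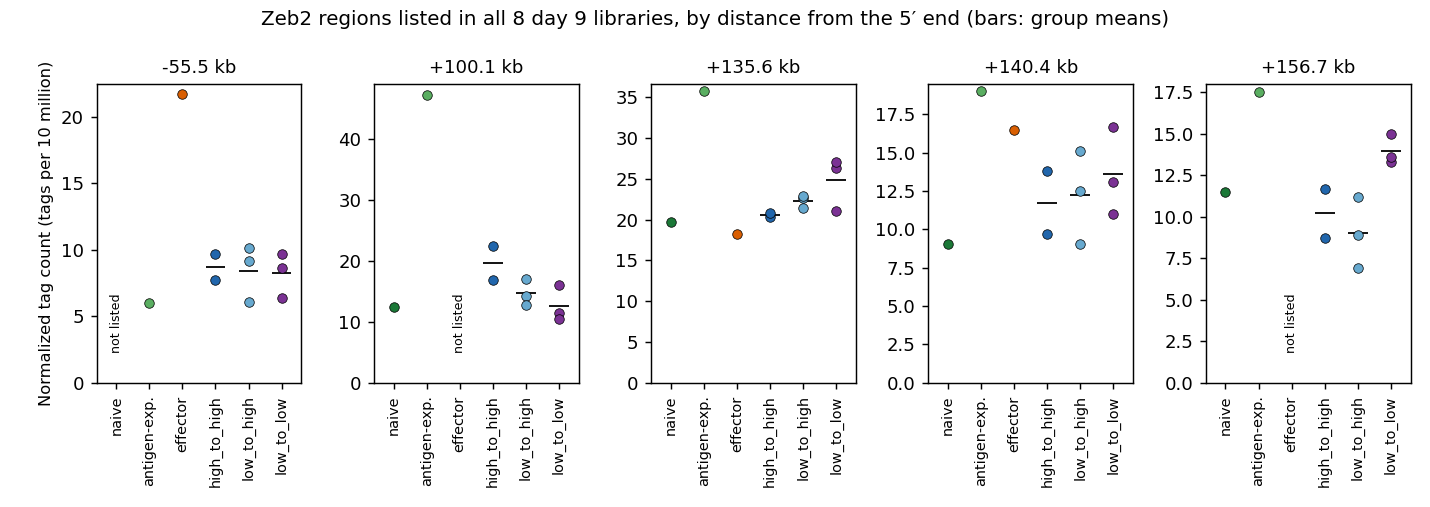
Normalized tag count of the 5 Zeb2 regions listed in all 8 day 9 libraries, in panels by distance from the outermost start in kb, with 1 point per library, a bar at each day 9 group mean and "not listed" where a group has no peak. The effector point is highest at -55.5 kb, and the antigen-experienced point is highest at 100.1 kb, where effector cells have none.

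Beyond the 3′ end of Zeb2, the region 22655 bp away (44960582 to 44960857) was missing from the effector list, with 11.5 in naive and 17.5 in antigen-experienced cells. It held 8.72 and 11.7 in high_to_high, 6.91, 11.2 and 8.88 in low_to_high, and 13.3, 13.6 and 15.0 in low_to_low libraries. The 5 YFP-high libraries lay below the 3 YFP-low libraries on this scale, a separation not counted over all regions. On the centred log2 scale they overlapped, with high_to_high replicate 2 at 3.82 and the low_to_low libraries at 3.80, 3.57 and 3.92. The region 1543 bp beyond the gene had 35.8 in antigen-experienced cells, 20.3 and 20.8 in high_to_high, 22.7, 22.9 and 21.4 in low_to_high, and 21.1, 26.3 and 27.1 in low_to_low libraries. Day 9 values there lay between 20.3 and 27.1, close to the 19.7 and 18.2 of naive and effector cells.

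At the region 6228 bp beyond the gene, values were 9.06 in naive, 19.0 in antigen-experienced and 16.5 in effector cells. They were 9.68 and 13.8 in high_to_high, 12.5, 9.03 and 15.1 in low_to_high, and 16.7, 13.1 and 11 in low_to_low libraries, so the 3 day 9 groups overlapped. A window just beside it (44976529 to 44976832) held 7.86 in naive cells and 6.34 to 11.2 in 3 day 9 libraries.

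The remaining shared Zeb2 regions were listed in 7 libraries or fewer. Upstream, 21538 bp from the gene (45138980 to 45139222), 7 libraries listed a region, effector cells at 7.52 and 6 day 9 libraries at 3.56 to 7.44. A neighbour 25822 bp away was listed in 3 day 9 libraries alone, at 3.75 to 6.45. Inside the gene, the region at 8.70 kb held 11.5 in antigen-experienced cells, 7.06 in naive cells, 6.78 in high_to_high replicate 1 and 8.97 in low_to_low replicate 1. At 14.3 kb antigen-experienced cells had 5.97 and low_to_low replicate 2 had 3.34, and at 77.8 kb high_to_high replicate 2 had 2.58 and low_to_low replicate 2 had 4.06. The single naive-only region lay 2386 bp beyond the 3′ end, at 9.19.

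The day 9 comparisons ask whether the loci differ with the YFP state and with its history. They were tested with limma on log2(normalized tag count + 1), centred per library, over the 34383 regions listed in all 8 day 9 libraries, with Benjamini-Hochberg adjustment over all of them. Of the 52 regions 10 could be tested, 5 per locus, and 1 passed.

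High_to_high cells were more open than low_to_low cells at the Zeb2 region 100.1 kb into the gene. The mean was 19.7 ± 3.96 (SD, n = 2) against 12.7 ± 3.01 (n = 3). On the centred log2 scale the difference was 0.90 ± 0.18 (SE), with a limma adjusted p = 0.00738. Without centring it was 0.61 (limma adjusted p = 0.0274). On that scale the typical region was lower in high_to_high libraries by 0.30 (log2). The Zeb2 region was 1 of 10 member regions, where 0.596% of all regions were called, 0.558% higher and 0.0378% lower. Without high_to_high replicate 1 the fold change was 0.71 (limma adjusted p = 0.174), and with each library's percentage of tags inside peaks in the model it was 1.08 (adjusted p = 0.971). Summed values of the B cell list were 64.98 to 80.1 in YFP-high and 92.1 to 126.5 in YFP-low libraries, with Ms4a1 and Cd79a without a region in both. Those of the natural killer list were 311.2 to 350.9 and 371.4 to 428.5 (Ncam1 without a region), of the myeloid list 120.7 to 137.5 and 130.7 to 171.4 (Csf1r and Cd68 without a region), and of the CD4 and regulatory T cell list 108.4 to 142.2 and 122.9 to 146.9. CD8 T cell markers summed to 684.3 to 829.1 and 820.7 to 986.8. A region 26981 bp from Cd40lg, the gene of a ligand on helper T cells, was the only marker region called, at 0.99 ± 0.20 in high_to_high against low_to_low (limma adjusted p = 0.00962), 0.98 ± 0.16 in YFP-high against YFP-low (adjusted p = 0.00158) and 0.97 ± 0.18 in low_to_high against low_to_low cells (adjusted p = 0.0265). The part of other cells in the Zeb2 difference at day 9 was not tested. The low_to_high cells, at 14.7 ± 2.17 (n = 3), differed from low_to_low cells by 0.38 ± 0.16 (limma adjusted p = 0.800) and from high_to_high cells by -0.52 ± 0.18 (adjusted p = 0.923). The comparisons share libraries and are given side by side.

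**Figure D5:**
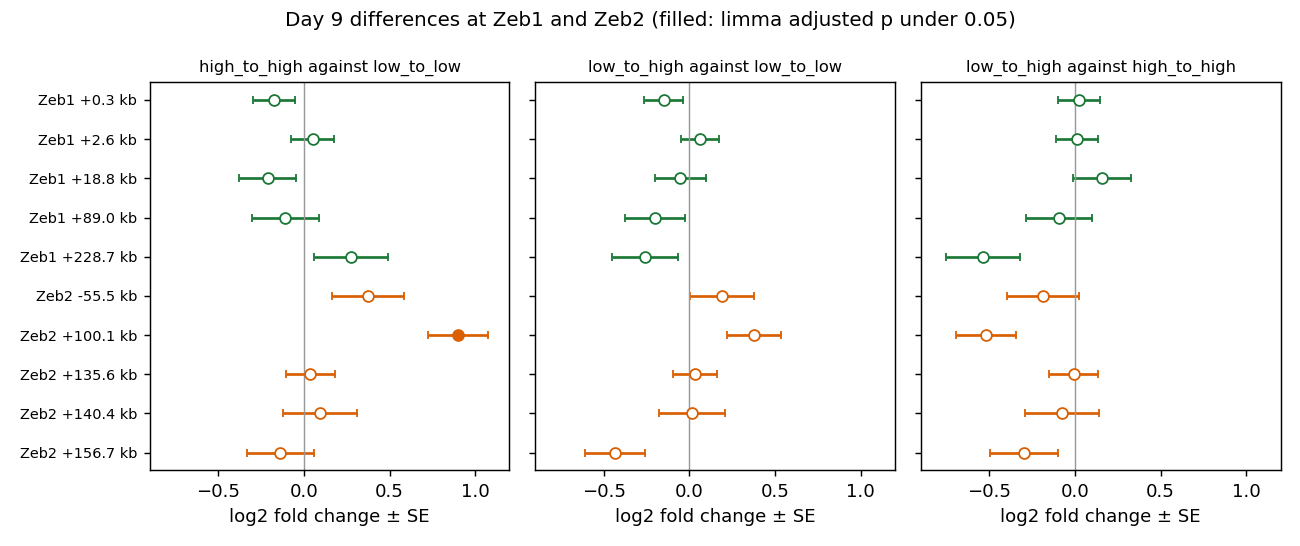
Log2 fold change with its SE for the 10 tested regions (Zeb1 green, Zeb2 orange, by distance from the 5′ end in kb) in 3 day 9 comparisons, with a filled symbol where the limma adjusted p is under 0.05. The Zeb2 region at 100.1 kb in high_to_high against low_to_low is the only filled symbol.

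For all YFP-high against YFP-low libraries, this Zeb2 region was 16.7 ± 3.73 (n = 5) against 12.7 ± 3.01 (n = 3). The centred log2 fold change of 0.59 ± 0.16 (0.37 without centring) did not pass (limma adjusted p = 0.103). Of the 10 member regions 0 did, where 0.332% of all regions were called, 0.329% higher and 0.00291% lower. Without low_to_high replicate 3 the Zeb2 region passed, at 0.68 (limma adjusted p = 0.0408). In low_to_high against low_to_low 0 of 10 were called (0.032% of all), and in low_to_high against high_to_high 0 of 10 (0% of all). At an unadjusted p under 0.05 there was 1 member region in YFP-high against YFP-low and 1 in high_to_high against low_to_low, where 8.07 and 9.92% of all regions reached it. There were 2 in low_to_high against low_to_low and 2 in low_to_high against high_to_high, where 5.56 and 5.09% did.

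At Zeb1 none of the 5 tested regions passed in any of the 4 comparisons, with medians of -0.12, -0.11, -0.15 and 0.01 in the order just given (limma adjusted p at least 0.683). All regions had medians between -0.01 and 0.01. At the first region the deposited values did not overlap, a separation not counted over all regions. They were 30.4 ± 2.03 in YFP-high (n = 5) and 40.03 ± 6.12 in YFP-low libraries (n = 3). The centred log2 fold change was -0.16 ± 0.10 (limma adjusted p = 0.700). On the deposited scale the typical region was also lower in YFP-high libraries, by 0.22 (log2). The strongest Zeb1 region differed by 0.06 ± 0.10 (limma adjusted p = 0.917). At the region beyond the 3′ end, low_to_high cells had a log2 fold change of -0.53 ± 0.22 against high_to_high cells (limma adjusted p = 0.923).

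Zeb2 medians over the 5 tested regions were 0.05, 0.09, 0.03 and -0.18 in the same order. The region 22655 bp beyond the gene had -0.31 ± 0.16 in YFP-high against YFP-low cells (limma adjusted p = 0.632) and -0.43 ± 0.18 in low_to_high against low_to_low cells (adjusted p = 0.794). Of the 52 regions 0 were listed in all libraries of a day 9 group and in none of another, as 0.0928 to 1.12% of all regions were for the 6 ordered pairs of groups.

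Other genes of the ZEB circuit, 24 in all, had 310 regions, of which 95 were tested at day 9. Limma called 1 of the 95, higher in high_to_high than in low_to_low cells, where 0.596% of all regions were called, and 0 in the other 3 comparisons. It lies 1556 bp from Tbx21, the gene of T-bet (chromosome 11, 97096144 to 97096451). Its values were 17.8 and 13.0 in high_to_high, 14.3, 9.75 and 10.1 in low_to_high, and 11.8, 9.56 and 7.30 in low_to_low libraries. The deposited values of the high_to_high and low_to_low groups did not overlap, a separation not counted over all regions. The difference was 0.93 ± 0.21 on the centred log2 scale (limma adjusted p = 0.0251). Without centring it was 0.64 (limma adjusted p = 0.0277). The call was lost with the percentage of tags inside peaks in the model, at 0.53 (limma adjusted p = 0.992). It was also lost without high_to_high replicate 1 (0.73, limma adjusted p = 0.294) or 2 (1.15, adjusted p = 0.0534) and without low_to_low replicate 2 (0.87, adjusted p = 0.161) or 3 (0.80, adjusted p = 0.146). In YFP-high against YFP-low cells the same region had the lowest p of the list, at 0.62 ± 0.18 (limma adjusted p = 0.182). It held 52.4 in antigen-experienced, 14.3 in naive and 11.2 in effector cells.

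The list's median log2 fold change was 0.02 in the first 3 day 9 comparisons and 0.01 in low_to_high against high_to_high. For the latter, and for low_to_high against low_to_low, the region with the lowest p lay in Smad3, a transducer of TGF-beta signals (chromosome 9, 63706365 to 63706616). It held 42.0 and 43.5 in high_to_high, 35.0, 34.3 and 29.3 in low_to_high, and 42.0, 52.2 and 44.3 in low_to_low libraries. All low_to_high deposited values lay below the others, a separation not counted over all regions. The centred log2 fold changes were -0.49 ± 0.12 against high_to_high (limma adjusted p = 0.923) and -0.31 ± 0.11 against low_to_low cells (adjusted p = 0.658).

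Between effector and naive cells, 79 regions of the list were shared. Of these, 7 were higher by 1 or more and 11 lower, against 14.6 and 6.1% of all shared regions, with a median of -0.07. Among the 9 T cell and junction genes of the list the median was -0.43 over 24 regions. Ccr7, a homing chemokine receptor, had a median of -0.60 over 5 regions. Gata3, a T cell lineage factor, had 1.08 over 3 regions, and the 1 shared region of the corepressor gene Ctbp2 had 1.55. The 9 genes of TGF-beta signalling had a median of 0.06 over 41 regions, with 3 higher and 6 lower by 1 or more.

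Genes with the pattern most like each member were sought by the mean centred log2 value over regions listed in all 11 libraries, among 5582 other genes with at least 2 such regions. For Zeb1 (5 regions) they were Ccnd3 (r = 0.961), Ifnar1 (0.955), Capg (0.944), Ikzf1 (0.942) and Zpbp2 (0.942). For Zeb2, which rests on the 2 regions beyond its 3′ end, they were Zfp947 (0.897), Ikzf2 (0.894), Ccl28 (0.890), Ap1s3 (0.881) and Pcca (0.876). These are Pearson correlations over 11 libraries that share depth and window width across genes, and are a description. The mean at Zeb1 was 4.68 in naive and 4.1 in effector cells, and at Zeb2 3.59 and 4.68.

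At the limits of the rule, the outermost Zeb1 regions lay 77551 and 69014 bp from the gene, at 6.11 and 3.57 in effector cells alone. The next regions outward, at 107350 and 157210 bp, were also effector-only, at 7.61 and 7.90. The outermost Zeb2 regions held 15.6 and 12.4 in effector cells alone. On one side the next region, nearer to Gtdc1, was listed in effector and antigen-experienced cells at 22.7 and 4.90. On the other it lay 100813 bp away, at 3.76 in effector cells alone.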

How the data were processed

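Tools named in the submitters' processing notes are HOMER 4.10, Bowtie2 and DESeq2, with mm10 as the build. Each library has its own peak list. Its thresholds, per the file headers, were an FDR of 0.001, a 4-fold excess over the local 10 kb and a Poisson p of 1e-04 against that window. The signal the authors deposited is the normalized tag count, tags in the peak window per 10000000 tags, so a weak or locally filtered region is missing rather than 0. The weakest peaks rested on 8.00 to 13.99 tags.

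Peaks on autosomes and X overlapping by at least 1 bp were merged (checked with bedtools 2.31.1), each region taking its strongest peak per library. Regions were assigned to the nearest protein-coding span within 100 kb, which does not show regulation. Day 9 groups were compared with limma 3.58.1 in R 4.3.3 (eBayes with trend) on log2(value + 1), median-centred. Adjusted p under 0.05 was a call. Single libraries have no test. All regions at the loci were counted. Values in every library are printed for those listed in all 8 day 9 libraries, at a start, called, or strongest in 1 reference alone. The weaker regions described singly, the paired windows and the circuit genes other than Tbx21 and Smad3 were picked after their values were seen. Some genes of the lists are not reported here by name. The members and lists were chosen with earlier results of these data known.

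In the self-test over 34383 regions, changes of 1 on the log2 scale were recovered in 90% of regions for YFP-high against YFP-low, 74% for high_to_high against low_to_low, 79.5% for low_to_high against low_to_low and 72.5% for low_to_high against high_to_high. Deviations from group means correlated at 0.136 to 0.298 in the 3 same-numbered pairs of low_to_high and low_to_low libraries, which the labels do not call paired, and at -0.04 to -0.00121 in pairs with high_to_high.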

Additional observations from a re-analysis of the deposited data

How the results depend on the processing

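Alternatives were another pseudocount (4), no centring, cyclic loess, regions listed in at least 2 libraries of each group, a replicate block, each library's percentage of tags inside peaks as a covariate, each day 9 library left out, the compared groups alone, peaks of at least 10, other merging, summed peaks and assignment within 10 kb. Joining peaks up to 150 bp apart was added after seeing the data. Member calls for high_to_high against low_to_low went from 1 to 2 without centring, where the first Zeb1 region was called too, and to 0 with the covariate, and ranged from 0 to 1 with a library left out. For YFP-high against YFP-low they went from 0 to 1 without centring, at the Zeb2 region 22655 bp beyond the gene, and ranged from 0 to 1 with a library left out. The replicate block gave 0 and 1 member calls in these comparisons, with the Zeb2 region 100.1 kb into the gene at 0.82 (limma adjusted p = 0.00800), and changed no member call. That region kept its direction under all 19 alternatives, from 0.61 to 1.10, and its call in 17. In the other two comparisons 0 members were called under every alternative. Of 730 alternative values for the 40 pairs of region and comparison, 5 changed a call and 55 changed sign, none from a fold change above 0.27 in size. Over all regions, the calls higher and lower for YFP-high against YFP-low were 113 and 1, 79 and 1943 without centring, 207 and 6 with the block and 0 and 0 with the covariate. For high_to_high against low_to_low they were 192 and 13, then 149 and 7261, 330 and 44, and 0 and 0. For low_to_high against low_to_low they were 11 and 0, then 0 and 0, 55 and 0, and 0 and 0. With a library left out the higher calls ran from 16 to 199, 42 to 297 and 0 to 53 in these comparisons, and the lower calls from 0 to 6, 2 to 82 and 0 to 2. Without high_to_high replicate 1, high_to_high against low_to_low gave 42 higher and 82 lower. The comparison of low_to_high with high_to_high, with 0 and 0, gave 11 without high_to_high replicate 1 and 0 to 4 calls under other settings.

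Peaks of at least 10 left 9 regions at Zeb1 and 18 at Zeb2. For effector against naive cells the Zeb1 median moved to -1.24 without centring, -0.92 with peaks of at least 10, -0.85 within 10 kb and -1.11 with peaks joined, and the Zeb2 median to 0.78 with the larger pseudocount and 0.27 without centring. For effector against antigen-experienced cells the Zeb1 median of -0.08 moved to -1, -0.74, -0.51 and -0.41 under the same 4 settings, and the Zeb2 median of 0.83 moved to 0.55 with peaks of at least 10 and reversed to -0.087 without centring. Depth limits the weak regions, since the weakest listed value was 2.25 to 4.32 depending on the library.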
